A study of Homo sapiens with 4 samples.

Results

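The death receptors and the proteins that bind them first form the entry point of extrinsic apoptosis, and 10 of their genes are described here among the 20263 genes listed for each library. They are the TRAIL receptors TNFRSF10A, TNFRSF10B, TNFRSF10C and TNFRSF10D, the receptors FAS and TNFRSF1A, the ligand TNFSF10, and the adaptors and kinase FADD, TRADD and RIPK1. The genes were chosen by name for their role, with earlier results of these data known, and all 10 were found in the tables by symbol. RNA was sequenced from HCT116, an established human colorectal carcinoma cell line whose genotype field reads WT. Cells were given 30 µM HJ-23 for 24 hours (2 libraries) or 0.1% DMSO, the solvent, for 24 hours (2 libraries). The submitters describe this compound as derived from piperine. The sample titles say HJ-23 and the treatment field of the same samples says HJ-25; the titles are followed. The count columns are headed C for the samples titled HJ-23 and D for those titled DMSO, letters that no source used here explains, so every direction rests on the titles. The sources used here do not state the solvent share of the treated cultures. Nothing in the labels says that the 2 libraries of a group were separate cultures, so p-values here reflect only library-to-library spread, possibly technical. In bulk RNA, fewer cells of a kind and less RNA per cell cannot be told apart.

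Death receptors carry a death domain on their inner side. When a ligand such as TRAIL (the product of TNFSF10), Fas ligand or TNF brings receptors together, this domain recruits adaptor proteins: FADD at FAS and at the TRAIL receptors, TRADD and RIPK1 at TNFRSF1A. FADD then gathers caspase-8, which starts the caspase cascade, while TRADD and RIPK1 can instead lead to NF-kB signalling. A pair of TRAIL receptors are decoys that bind the ligand without passing on a full death signal: TNFRSF10C has no intracellular domain, and TNFRSF10D has a truncated death domain. Colorectal cell lines have long been used to study TRAIL-induced killing.

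The 4 libraries held 29769568 to 34831207 counts, with a count for 15533 to 15754 genes each. Even numbers made up 69.6% to 72.3% of the values from 1 to 8 and 49.7% to 50.8% of those over 50. Mates thus seem to be counted separately, and the floor used where a gene has 0 is 6 counts, or 3 fragments, which covers counting error only. Of 10 markers of colon epithelial carcinoma, EPCAM, KRT8, KRT18, KRT19, CDH1 and CDX2 were expressed, and the other 4 were under 1 CPM in every library. The leukocyte markers PTPRC and CD3E had 0 counts in all 4 libraries. The summed level of the 6 leukocyte markers was 1.92 and 2.27 CPM in HJ-23 libraries 1 and 2, against 1.93 and 1.30 CPM in DMSO libraries 1 and 2, and 3 of the 4 fibroblast markers were under 1 CPM throughout, COL1A1 being the exception. Levels are given as CPM, that is, counts scaled to a common library size with TMM factors, and every fold change is HJ-23 over DMSO.

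HJ-23-treated cells held more mRNA of the death-inducing receptors TNFRSF10B, FAS and TNFRSF1A and of the decoy TNFRSF10C, and less of the decoy TNFRSF10D, each at an unadjusted p below 0.05. TNFRSF10B was 1.59-fold higher and TNFRSF10D 1.72-fold lower. The adaptors FADD and TRADD differed by less than their SE, the libraries of the kinase RIPK1 overlapped between groups, and the ligand TNFSF10 was at the limit of detection in both groups. None of these differences passed adjustment over all genes with edgeR, the quasi-likelihood test used throughout: of the 9 genes tested, 0 passed in either direction at an adjusted p below 0.05, where 0.0569% of the 14062 genes tested passed as higher and 0.0284% as lower. At an unadjusted p below 0.05, 4 of the 9 were higher, against 6.77% of all genes tested, and 1 of the 9 was lower, against 5.25%. The count of 4 became 2 without DMSO replicate 1 and 1 without DMSO replicate 2, where the share of all genes was 4.15% and 3.33%. With DESeq2, TNFRSF10B passed as higher (1.19% of all genes did) and TNFRSF10D as lower (1.11% did). The HJ-23 values were both higher than either DMSO value for 5 of the 9 genes, against 24.8% of all genes, and both lower for 1, against 21.2%. The median log2 fold change of the 9 genes was 0.36, against 0.0086 over all genes tested.

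**Figure D1:**
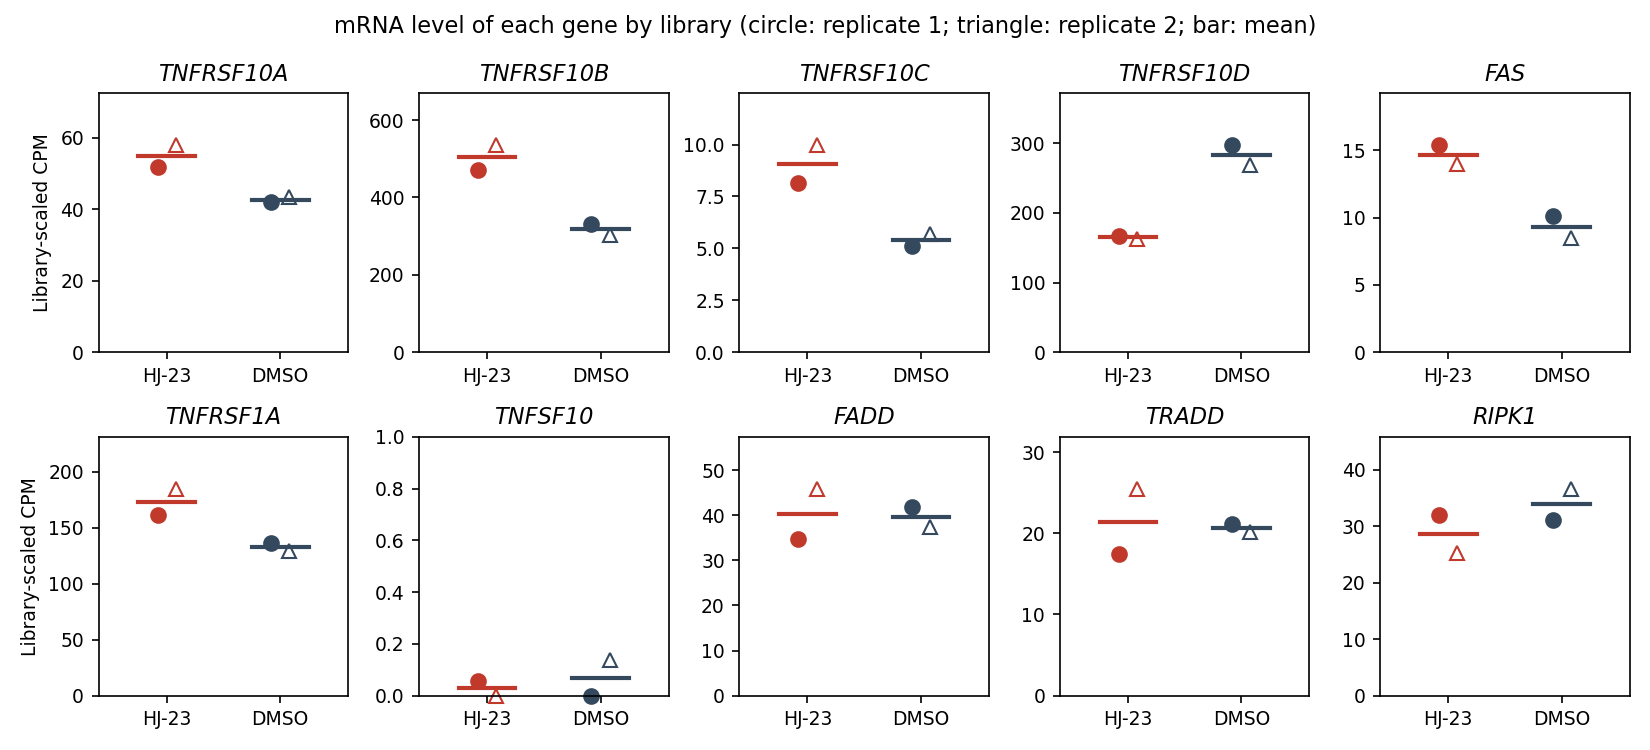
Library-scaled CPM of the 10 genes, each on its own linear axis from 0, with HJ-23 left and DMSO right; circles are replicate 1, triangles replicate 2 and bars the mean of 2 libraries. The groups do not overlap for the 4 TRAIL receptors, FAS and TNFRSF1A, with TNFRSF10D the one that was lower in HJ-23 (166 and 163 CPM, against 297 and 269 CPM in DMSO), and they overlap for TNFSF10, FADD, TRADD and RIPK1.

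TNFRSF10B (ENSG00000120889) encodes DR5, a TRAIL receptor with a full death domain. It stood at 472 and 535 CPM in HJ-23 libraries 1 and 2, against 332 and 302 CPM in DMSO libraries 1 and 2. The groups did not overlap, and their means were 503 ± 44.8 CPM in HJ-23 and 317 ± 21.0 CPM in DMSO (SD, n = 2 each). The log2 fold change was 0.67 (SE 0.14), with an adjusted p of 0.233 by edgeR and of 0.0214 by DESeq2. This gene shares 67 exon bases with RHOBTB2 on the opposite strand; RHOBTB2 was at 22.4 and 26.2 CPM in HJ-23, against 27.1 and 27.3 CPM in DMSO.

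TNFRSF10A (ENSG00000104689) encodes DR4, the other TRAIL receptor with a full death domain. Its levels were 51.8 and 57.97 CPM in HJ-23, against 41.97 and 43.3 CPM in DMSO. Both treated libraries were above both solvent libraries, but the log2 fold change of 0.36 (SE 0.15) missed even the unadjusted threshold in the edgeR fit (unadjusted p = 0.0566, adjusted p = 0.430).

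TNFRSF10D (ENSG00000173530) encodes the decoy DcR2 and was the gene of the 10 with the smallest unadjusted p (0.00114 in the edgeR fit). It had 166 and 163 CPM in HJ-23, against 297 and 269 CPM in DMSO. The treated libraries differed from each other by far less than from the solvent ones. The means were 165 ± 2.24 CPM in HJ-23 and 283 ± 20.2 CPM in DMSO (SD, n = 2 each), a log2 fold change of -0.78 (SE 0.13) with an adjusted p of 0.198 by edgeR and of 9.61e-04 by DESeq2. It was the only one of the 4 TRAIL receptors with a negative fold change, and it stayed negative in all 11 alternative analyses, between -0.87 and -0.71.

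TNFRSF10C (ENSG00000173535) encodes the decoy DcR1, which is held to the membrane by a lipid anchor. Its counts were 289 and 343 in HJ-23, against 159 and 166 in DMSO. That is 8.15 and 9.97 CPM in HJ-23, against 5.12 and 5.67 CPM in DMSO. The log2 fold change of 0.75 (SE 0.21) had an adjusted p of 0.309 by edgeR. The 2 decoys therefore stood on opposite sides, the scarce one higher and the abundant one lower in treated cells. In GENCODE 29, TNFRSF10C shares 485 and 249 exon bases with 2 other transcribed loci on its own strand, neither of them in the count tables, so its value is less certain.

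The 4 TRAIL receptor genes lie beside each other on chromosome 8 and arose from a common ancestor, so reads could in principle be credited to the wrong copy. In the annotated transcripts no stretch of 50 bases was common to any pair of the 10 genes. Of stretches of 31 bases, 1.64% in TNFRSF10C and 1.17% in TNFRSF10D were also found in another of the 10 genes. Sharing with loci outside the 10 genes was not measured beyond the exon overlaps given.

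Levels were taken per kilobase of annotated exon, so that genes of different length can be set side by side. The summed level of the 4 receptors overlapped between the 2 groups on this measure, while their make-up differed. Their sum was 160 and 175 CPM per kilobase in HJ-23, against 165 and 152 CPM per kilobase in DMSO. These ranges overlap (exact two-sided permutation test, p = 0.667, n = 2 each). The overlap depends on the length used. With the longest transcript as the length, or with CPM not divided by length, both treated sums were above both solvent sums. The decoys TNFRSF10C and TNFRSF10D held 32.0% and 29.4% of that sum in HJ-23, against 52.5% and 51.9% in DMSO. The decoy share was lower in both treated libraries. With 2 libraries a group the smallest p an exact permutation test can give is 0.333. Any quantity whose groups do not overlap has that p, so the test adds nothing for the decoy share. For the same reason its p of 0.667 cannot show that the sums were alike. Among all genes tested, 24.8% had both HJ-23 values above both DMSO values and 21.2% had both below. The mean share was 30.7% ± 1.84 in HJ-23 and 52.2% ± 0.424 in DMSO (SD, n = 2 each), a difference of -21.4 percentage points.

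A pair of genes made up most of this difference. TNFRSF10B made up 57.0% and 59.3% of TRAIL receptor mRNA per kilobase in HJ-23, against 38.9% and 38.5% in DMSO. TNFRSF10D made up 29.3% and 26.4% in HJ-23, against 50.8% and 49.9% in DMSO. The other decoy, TNFRSF10C, made up 2.72% and 3.05% in HJ-23, against 1.66% and 1.995% in DMSO. The lower decoy share thus came from TNFRSF10D and not from both decoys. The ratio of TNFRSF10B to TNFRSF10D per kilobase was 1.94 and 2.25 in HJ-23 and 0.767 and 0.772 in DMSO, so the more abundant receptor was DR5 in treated cells and DcR2 in solvent-treated cells; with the longest transcript as the length, the DMSO values of these genes overlapped (80.1 and 72.9 for TNFRSF10B, 84.0 and 75.9 for TNFRSF10D). The ratio of DR5 to DR4, the 2 death-inducing receptors, was 5.21 and 5.28 in HJ-23 and 4.53 and 3.99 in DMSO. Protein and cell surface amounts were not measured.

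**Figure D2:**
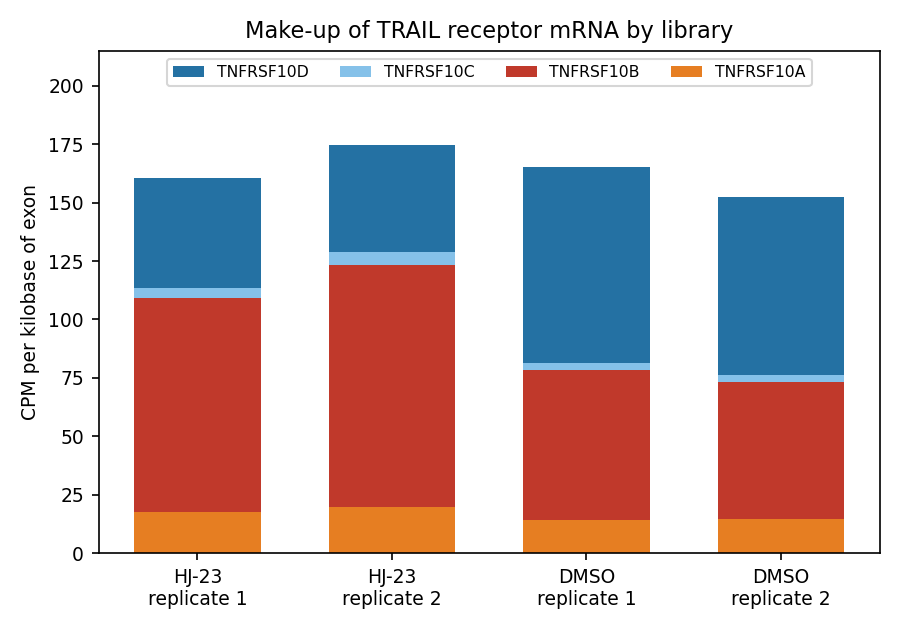
CPM per kilobase of exon of the 4 TRAIL receptors, stacked in 1 bar per library, HJ-23 libraries left and DMSO libraries right. The bar heights overlap between the groups with this length (160 and 175 in HJ-23, against 165 and 152 in DMSO). The TNFRSF10D segment is 47.0 and 46.1 in HJ-23, against 84.0 and 75.9 in DMSO, and the TNFRSF10B segment 91.4 and 103.7, against 64.4 and 58.6.

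FAS (ENSG00000026103), the receptor of Fas ligand, was the least abundant of the 6 receptors described here per kilobase of merged exons; with the longest transcript as the length, TNFRSF10C was lower. Its counts were 545 and 480 in HJ-23, against 315 and 249 in DMSO. That is 15.4 and 13.9 CPM in HJ-23, against 10.1 and 8.51 CPM in DMSO, with no overlap. The log2 fold change was 0.65 (SE 0.19), with an adjusted p of 0.318 by edgeR. FAS shares 380 exon bases with ACTA2 on the opposite strand, and no source used here states whether counting was by strand, so reads of the 2 genes there cannot be told apart. ACTA2, which encodes smooth muscle actin, was at 21.0 and 24.96 CPM in HJ-23, against 12.8 and 11.3 CPM in DMSO, a log2 fold change of 0.93 (SE 0.19). Its part in the FAS difference was not tested.

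The promoter windows of RefSeq (GRCh38.p14, the 250 bases before each listed start) were read for 5 of the 10 genes, FAS, TNFRSF1A, TNFSF10, FADD and RIPK1, with 9 windows in all. They are shown for FAS because regulators known to act on its promoter, Sp1 and NF-kB, were also measured here. Both strands were searched for the Sp1 box GGGCGG, the CHOP and ATF4 composite element TGATGNAAN, the AP-1 site TGANTCA and the kappa-B site, and matches to different motifs may overlap. The stretches of 30 bases below are from the plus strand, 5′ to 3′, with the matched bases in capitals; 2 that fall before the most downstream FAS start and 1 before the FADD start are printed.
FAS Sp1 boxes, chr10:88991361-88991390: gtgcgcgCCGCCCcgcggGGGCGGggagag
FAS kappa-B site, chr10:88991264-88991293: ggtcgctggaGGGGGACCCCggttggagag
FADD Sp1 box, chr11:70203207-70203236: cgccgccagccaGGGCGGaaacggctgcgg
The Sp1 box was found in 42.6% of all 35114 windows and the kappa-B site in 5.21%. The Sp1 box occurs in every FAS, FADD and RIPK1 window. Some windows of a gene overlap, so these are not all separate sites. The 2 most upstream FAS windows hold the same box, and the 2 most downstream RIPK1 windows have 1 in common. Neither the TNFRSF1A nor the TNFSF10 window held a match to any of the 4 motifs. The AP-1 site, found in 6.57% of all windows, occurs once, in the most upstream FAS window. No window of the 5 genes held the CHOP and ATF4 element, found in 3.13% of all windows. The TNFSF10 window held 2 CpG dinucleotides and the FADD window 32, where the median over all windows was 11. Such matches describe letters and not binding, and GENCODE 29 annotates exons of other FAS transcripts across this window.

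TNFRSF1A (ENSG00000067182) is the main TNF receptor of epithelial cells. It was at 161 and 185 CPM in HJ-23, against 136 and 129 CPM in DMSO. The groups did not overlap, and the log2 fold change was 0.38 (SE 0.14), with an adjusted p of 0.389 by edgeR. With a correction for GC content and length it was 0.22, and the longest TNFRSF1A transcript has 57.5% GC. The same correction took TNFRSF10C (57.9% GC) from 0.75 to 0.56 and FAS (39.1% GC) from 0.65 to 0.75. Across all genes tested, fold change and GC content had a Spearman correlation of 0.37, given as a description over genes that are not independent. The ratio of TNFRSF1A to FAS per kilobase was 11.1 and 14.1 in HJ-23, against 14.3 and 16.2 in DMSO. The ranges did not overlap, but the nearest values of the groups lay closer together than the 2 libraries of either group.

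TNFSF10 (ENSG00000121858), the gene of the ligand TRAIL, had 2 and 0 counts in HJ-23, against 0 and 4 counts in DMSO. All 4 values are under the floor of 6 counts, which corresponds to 0.169 to 0.205 CPM, so no fold change is given, and the gene did not pass the filter on low counts. The ligand FASLG had 0 counts in all 4 libraries, which allows up to 6 counts in each. TNF had 6 and 14 counts in HJ-23, against 2 and 2 in DMSO, and was also too low to be tested. The mRNAs of the receptors' own ligands were thus at or near 0 in both groups.

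FADD (ENSG00000168040), the adaptor that links FAS and the TRAIL receptors to caspase-8, was at 34.8 and 45.9 CPM in HJ-23, against 41.8 and 37.5 CPM in DMSO. The treated libraries enclosed the solvent ones. Its log2 fold change was 0.024 (SE 0.20; adjusted p = 0.969, edgeR), and its sign turned with the GC and length correction (-0.17) and without HJ-23 replicate 2 or DMSO replicate 2. TRADD (ENSG00000102871), the adaptor of TNFRSF1A, was at 17.4 and 25.5 CPM in HJ-23, against 21.2 and 20.1 CPM in DMSO. Here too the treated libraries lay on either side of the solvent ones, and the log2 difference of 0.055 (SE 0.22, edgeR adjusted p = 0.936) turned sign under the same alternatives. FADD and TRADD were lower in HJ-23 library 1 and higher in HJ-23 library 2, the pair of treated libraries differing more than the groups. Both overlap genes on the opposite strand, FADD by 1011 exon bases with an antisense transcript and TRADD by 126 with FBXL8. As for FAS, reads there cannot be told apart, which limits both values. FBXL8 is in the tables, while the antisense transcript at FADD is outside them. So are the transcripts with like overlaps at TNFRSF10A (224 and 266 bases) and RIPK1 (238 bases).

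RIPK1 (ENSG00000137275), the kinase that can lead from TNFRSF1A to survival signalling, apoptosis or necroptosis, was at 31.9 and 25.3 CPM in HJ-23, against 31.1 and 36.6 CPM in DMSO. The groups overlapped and the log2 fold change was -0.24 (SE 0.20; adjusted p = 0.632, edgeR). Its size moved from -0.11 without HJ-23 replicate 2 to -0.44 without HJ-23 replicate 1, with the sign kept.

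**Figure D3:**
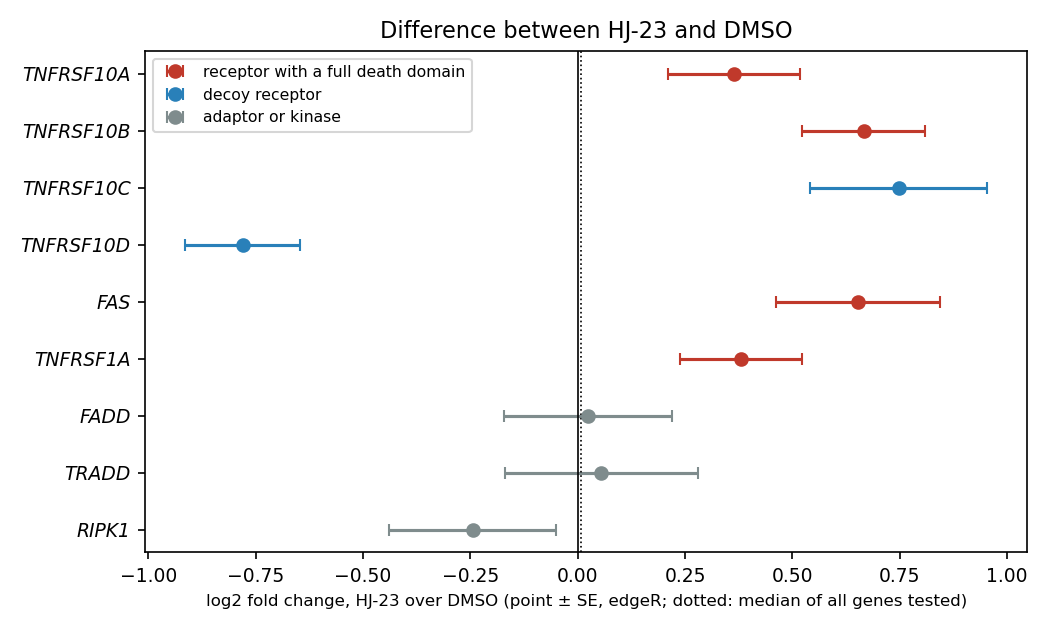
The log2 fold change, HJ-23 over DMSO, of the 9 genes tested (point, with SE as the bar, from edgeR), coloured by role, with the median of all genes tested as a dotted line at 0.0086. The 4 receptors with a full death domain lie at 0.36 to 0.67, the decoys at 0.75 (TNFRSF10C) and -0.78 (TNFRSF10D), and FADD, TRADD and RIPK1 between -0.24 and 0.055.

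Per kilobase of exon, TNFRSF10B came first in HJ-23 with 97.6 ± 8.68 CPM per kilobase, before TNFRSF10D with 46.6 ± 0.633 and TNFRSF1A with 43.2 ± 4.16 (SD, n = 2). In DMSO, TNFRSF10D came first with 79.96 ± 5.70 CPM per kilobase, before TNFRSF10B with 61.5 ± 4.08 and TNFRSF1A with 33.2 ± 1.22 (SD, n = 2). The rest had the same order in both groups, FADD, TNFRSF10A, TRADD, RIPK1, TNFRSF10C, FAS and TNFSF10. Neighbours whose libraries overlapped were FADD and TNFRSF10A in HJ-23, and TRADD and RIPK1 in both groups. With the longest transcript as the length, TNFRSF1A passed TNFRSF10D in HJ-23 and FAS passed TNFRSF10C in both groups, so these places depend on the annotation used.

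The rest of the pathway was described with 7 lists of 86 genes in all, of which 76 were tested. By edgeR 0 of the 76 passed over all genes; at an unadjusted p below 0.05, 14 were higher and 2 lower, where 6.77% and 5.25% of all genes were. DESeq2 called 5 higher and 1 lower, where 1.19% and 1.11% of all genes were called. Their median log2 fold change was 0.20. Among 7 other receptors of the TNF family tested, 4 were higher at an unadjusted p below 0.05 and 0 lower, with a median of 0.66. NGFR, the p75 neurotrophin receptor with a death domain, was at 220 and 268 CPM in HJ-23, against 103 and 98.4 CPM in DMSO (log2 fold change 1.28, SE 0.15; adjusted p = 0.0879, edgeR). LTBR, the lymphotoxin beta receptor, was at 95.7 and 113 CPM in HJ-23, against 50.2 and 52.4 CPM in DMSO (log2 fold change 1.02, SE 0.15; adjusted p = 0.137, edgeR). Both passed with DESeq2 (adjusted p = 4.18e-08 and 5.41e-05).

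TNFRSF12A, the receptor of TWEAK, and TNFRSF21, the death receptor DR6, had log2 fold changes of 0.66 (SE 0.22) and 0.45 (SE 0.16), with unadjusted edgeR p-values of 0.0227 and 0.0303. TNFRSF25, the death receptor DR3, was at 25.3 and 27.9 CPM in HJ-23, against 26.3 and 23.2 CPM in DMSO, with overlapping groups. TNFRSF1B, the second TNF receptor, was under 1 CPM in every library, and TNFRSF11B, a soluble receptor that can bind TRAIL, had 0 counts in all 4. In the list of ligands, TNFSF12, which encodes TWEAK, was the 1 gene above 5 CPM, with a log2 fold change of 0.22 (SE 0.17).

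The genes that act just after FADD form the caspase arm. Of 12 tested genes of this list, 1 was higher at an unadjusted p below 0.05 and 0 were lower. Over all genes tested, 6.77% were higher and 5.25% lower. The higher gene was PEA15, which encodes a death effector domain protein that can hold back FADD and caspase-8 (log2 fold change 0.51, SE 0.16). CASP8 was at 19.1 and 17.6 CPM in HJ-23, against 13.3 and 14.97 CPM in DMSO (log2 fold change 0.38, SE 0.17; adjusted p = 0.451, edgeR). CASP10 had a log2 fold change of 0.29 (SE 0.24) and BID, which links caspase-8 to mitochondria, one of 0.21 (SE 0.18). DAXX, a FAS-binding protein, had one of 0.28 (SE 0.14). None of these 3 passed the unadjusted threshold. CFLAR, whose product c-FLIP competes with caspase-8 at FADD, was at 18.95 and 43.2 CPM in HJ-23, against 38.9 and 18.6 CPM in DMSO. Its 2 libraries differed more within each group than the group means did, and its log2 fold change of 0.11 had an SE of 0.52.

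At an unadjusted p below 0.05, 4 of 24 genes of TNF receptor complex I and its ubiquitin enzymes were higher and 1 lower. Of all genes tested, 6.77% were higher and 5.25% lower. The list's median was 0.073 (log2 fold change). BIRC2, the ubiquitin ligase cIAP1 that modifies RIPK1, was at 29.1 and 25.5 CPM in HJ-23, against 46.6 and 55.1 CPM in DMSO (log2 fold change -0.90, SE 0.18; adjusted p = 0.222 by edgeR and 0.00214 by DESeq2). Its relative BIRC3 (cIAP2) was on the other side, at 126 and 100.01 CPM in HJ-23, against 75.6 and 82.6 CPM in DMSO (log2 fold change 0.51, SE 0.17; adjusted p = 0.355, edgeR). RBCK1, which encodes HOIL-1 of the linear ubiquitin complex, was at 153 and 194 CPM in HJ-23, against 105 and 99.8 CPM in DMSO (log2 fold change 0.77, SE 0.16). TNFAIP3, the ubiquitin-editing enzyme A20, was at 58.0 and 55.9 CPM in HJ-23, against 36.2 and 36.1 CPM in DMSO (log2 fold change 0.65, SE 0.15). RBCK1 and TNFAIP3 passed with DESeq2 and not with edgeR (adjusted p = 0.233 and 0.243). TRAF2, the scaffold of this complex, had a log2 fold change of 0.20 (SE 0.23).

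In the necroptosis arm, 1 of 6 tested genes was higher at an unadjusted p below 0.05 and 0 were lower. It was PGAM5, a mitochondrial phosphatase (log2 fold change 0.83, SE 0.23). RIPK3, the kinase that RIPK1 engages in necroptosis, had 0 counts in all 4 libraries, which allows up to 6 counts in each. Its substrate MLKL was at 6.09 and 5.20 CPM in HJ-23, against 4.63 and 4.55 CPM in DMSO, and RIPK2, a related kinase of bacterial sensing, had a log2 fold change of 0.27 (SE 0.14). In the list of receptor trafficking and glycosylation, 1 of 12 genes was higher and 1 lower at an unadjusted p below 0.05. The higher one was GMDS of fucose synthesis (log2 fold change 0.50, SE 0.20). The lower one was CLTC, the clathrin heavy chain (-0.48, SE 0.19). Beside this list and the necroptosis arm, the shares over all genes tested were 6.77% higher and 5.25% lower. DNM2, the dynamin of endocytosis, had a log2 fold change of 0.26 (SE 0.15).

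Transcription factors described as acting on the receptor genes were the last list. At an unadjusted p below 0.05, 3 of 12 were higher and 0 lower, where 6.77% and 5.25% of all genes tested were. The list's median log2 fold change was 0.26, with 8 of the 12 above 0 and 4 below. Those 4 were SP1, FOXO3, YY1 and HDAC1, each lower in both treated libraries than in either solvent library. In this list 5 of the 12 genes had both HJ-23 values above both DMSO values and 4 had both below. Over all genes tested these shares were 24.8% and 21.2%. SP1 was at 182 and 175 CPM in HJ-23, against 196 and 202 CPM in DMSO (log2 fold change -0.15, SE 0.13). ATF4, the effector of the integrated stress response, was at 962 and 1019 CPM in HJ-23, against 644 and 608 CPM in DMSO (log2 fold change 0.66, SE 0.13; adjusted p = 0.229 by edgeR and 0.00963 by DESeq2). NFKB1 was at 50.4 and 54.6 CPM in HJ-23, against 32.5 and 34.9 CPM in DMSO (log2 fold change 0.64, SE 0.16). DDIT3, the gene of CHOP, which is known to act on TNFRSF10B, was at 101 and 189 CPM in HJ-23, against 86.3 and 63.2 CPM in DMSO (log2 fold change 0.96, SE 0.32, with an edgeR adjusted p of 0.362); it is one of the 3 counted as higher. ATF3 was at 81.4 and 199 CPM in HJ-23, against 95.5 and 45.3 CPM in DMSO, and the groups overlapped.

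**Figure D4:**
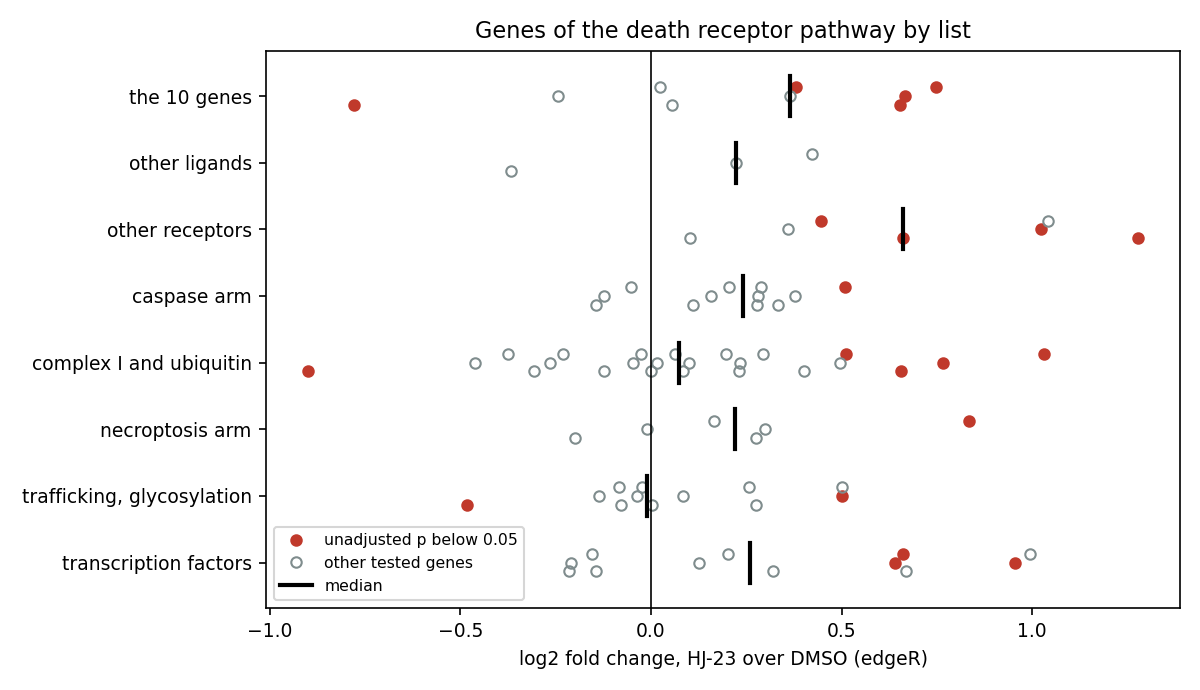
The log2 fold change, HJ-23 over DMSO (edgeR), of each tested gene, by list, with genes at an unadjusted p below 0.05 filled and the median of each list as a bar. The list of other receptors has the highest median (0.66) and no gene below 0, while the trafficking and glycosylation list is centred at -0.01.

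Among the 76 tested genes of the 7 lists, the 3 whose pattern over the 4 libraries was nearest to that of TNFRSF10D were BIRC2, TRAF6 and CLTC. The root mean square difference of their centred log2 CPM from that of TNFRSF10D was 0.16 for BIRC2, 0.25 for TRAF6 and 0.26 for CLTC. With 4 libraries this measure mostly reads the difference between the groups.

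**Figure D5:**
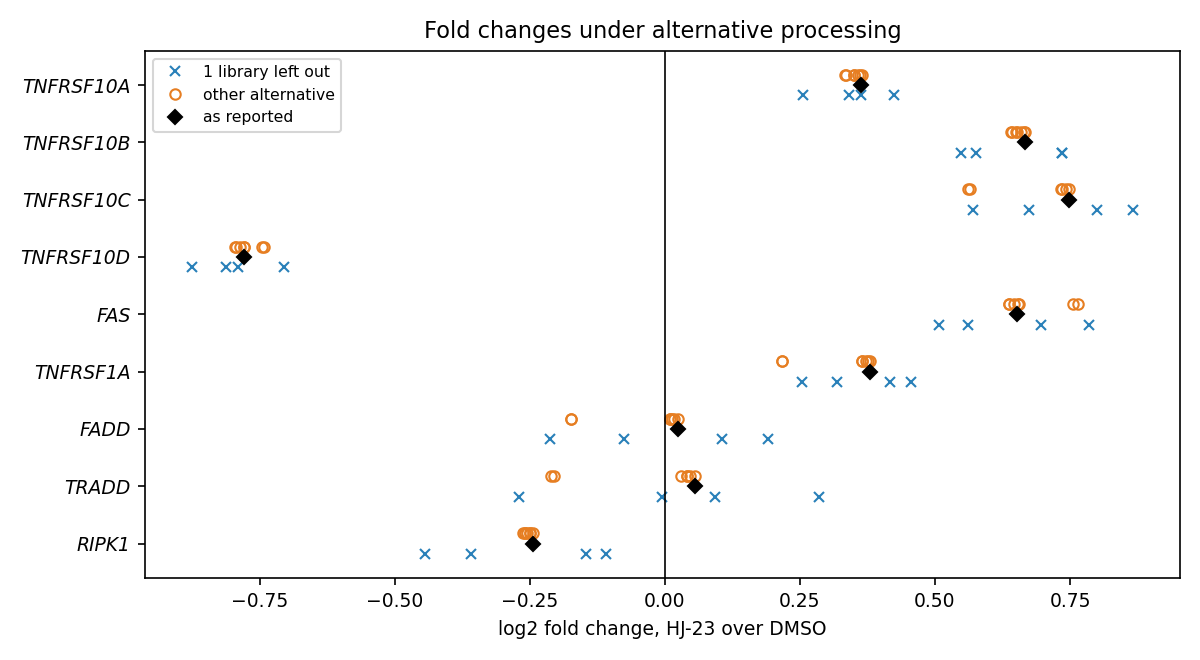
The log2 fold change, HJ-23 over DMSO, of the 9 genes tested as reported (diamond), with 1 library left out (cross) and under other alternatives (open circle). TNFRSF10D stays between -0.87 and -0.71 and TNFRSF10B between 0.55 and 0.74, while the values of FADD and TRADD fall on both sides of 0.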

How the data were processed

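Per the labels, the authors deposited raw counts, whole numbers per Ensembl gene, for 4 libraries of total RNA. Tools listed in the submitters' processing notes, with no version, are RSEM, HISAT2, Trimmomatic, bedtools and FastQC; no source used here states the build, annotation or strand setting. Of 20263 identifiers, 20148 were given symbols by a table of gene names and 76 by GENCODE 29; exon length, GC content and overlaps came from GENCODE 29.

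Counts were fitted with edgeR 4.0.16 in R 4.3.3 (TMM, filterByExpr, legacy quasi-likelihood F-test, robust, Benjamini-Hochberg over the 14062 genes tested, threshold 0.05); the SE is the log2 fold change over the square root of F. Residual degrees of freedom were 2; the common biological coefficient of variation was 19.6%. The edgeR and DESeq2 fits were run on simulated counts, where a pass was set only on the sign and median size of large changes. Those counts held no GC or replicate effect, so the runs cannot speak to such effects here. DESeq2 1.42.0 was an alternative, as were other scaling and filters, GC and length offsets, a replicate block and leaving out each library. The members and lists were chosen with earlier results of these data known. Named genes were the members, a fixed set of pathway genes and, in each list, up to 3 with the smallest unadjusted p and a mean of at least 5 CPM. Some of that set are not reported here.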

Additional observations from a re-analysis of the deposited data

How the results depend on the processing

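The signs of the TRAIL receptors, FAS, TNFRSF1A and RIPK1 held in all 11 alternatives, or the 10 in which TNFRSF10C was tested. DESeq2 called 161 genes higher and 150 lower in place of 8 and 4, and 1 of the 9 genes higher (TNFRSF10B) and 1 lower (TNFRSF10D) in place of 0 and 0. Genes called numbered 18 and 13 without a filter, 0 and 0 with a filter at 10 CPM (685 and 569 at an unadjusted edgeR p below 0.05), and 19 and 11 after correcting for GC and length. The median log2 fold change of the 9 genes was 0.36; it was 0.20 over the 8 left at 10 CPM and 0.22 after correcting for GC and length, block or no block. With 1 library left out, 0 to 112 genes were called higher and 0 to 161 lower by edgeR, both counts being 0 without HJ-23 replicate 1 (1778 and 1723 at an unadjusted p below 0.05) and without HJ-23 replicate 2 (628 and 749), and 1 to 4 of the 9 genes were higher at an unadjusted p below 0.05. FADD was at -0.17 with the GC and length correction, without or with the block, and at -0.21 to 0.19 with 1 library left out; TRADD was at -0.21 and -0.21, and at -0.27 to 0.285. The causes were not tested. The decoy share's difference stayed between -22.7 and -20.1 percentage points.

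The labels give both groups the numbers 1 and 2 but no shared origin, and same-numbered libraries had deviations with a correlation of -0.18. With the replicate block edgeR called 136 genes higher and 158 lower, 0 of them among the 9 genes, while adding GC and length terms to the block gave 0 and 0 (795 and 762 at an unadjusted edgeR p below 0.05). A crossed pairing, chosen after seeing the data, gave 454 and 512. Depth limits the statements on TNFSF10, TNF, FASLG and RIPK3, which had 0 to 14 counts a library.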

Other observations

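CYLD, a deubiquitinase of TNF receptor complex I, had, like CFLAR, its higher values in HJ-23 library 2 and DMSO library 1: 23.0 and 32.0 CPM in HJ-23 libraries 1 and 2, against 37.1 and 22.9 CPM in DMSO libraries 1 and 2. TRAF3 and TNIP2, of the same complex, were each lower in DMSO library 1 than in DMSO library 2, at 30.5 and 47.95 CPM for TRAF3 and 29.7 and 47.3 CPM for TNIP2. In HJ-23 libraries 1 and 2, TRAF3 was at 51.4 and 59.3 CPM and TNIP2 at 36.8 and 44.9 CPM. TRAF1, a target of NF-kB that binds the cIAP proteins, was at 4.79 and 6.31 CPM in HJ-23, against 2.96 and 2.46 CPM in DMSO, or 1.03 as a log2 fold change (SE 0.25, edgeR adjusted p = 0.273). All 4 were picked out with their values in view.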
